A study of Mus musculus with 6 samples.

Results

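Genes of MHC class II antigen presentation were measured by array in mesenteric arteries, vessels of the mouse intestine, with and without deletion of beta1 integrin in smooth muscle. The genes taken were H2-Aa, H2-Ab1, H2-Eb1, H2-DMa, H2-DMb1, Cd74 and Ciita, and every probe set with 1 of these names as its sole gene symbol was included. This gave 14 of the 45037 probe sets on the array, covering 6 of the 7 genes. H2-DMb1 had no probe set of its own, because its probe sets are also assigned to its neighbour H2-DMb2.

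The knockout group consisted of 3 mice (animal numbers 72, 73 and 86) that carried loxP-flanked beta1 integrin alleles and an sm22alphaCRE transgene. The control group consisted of 3 mice (30, 74 and 75) with the loxP-flanked alleles and no Cre. All 6 mice were of mixed background including FVB, SVJ129 and C57BL/6, were started on tamoxifen at 5 weeks of age (14 daily doses of 1 mg each) and were 7 weeks old. The SM22alpha promoter directs Cre to smooth muscle, whereas RNA was taken from whole arteries after removal of adipose and lymph tissue. Each array held 1 mouse, and the array title of knockout 86 gives a female where the others give males.

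MHC class II molecules display peptides from proteins taken up by a cell to CD4+ T cells. Dendritic cells, macrophages and B cells carry them constantly, and other cells can be induced to do so by interferon-gamma. The alpha and beta chains assemble with the invariant chain, encoded by Cd74, which blocks the peptide groove until proteases degrade it in endosomes. H2-DM then exchanges the remaining fragment for a peptide. The coactivator CIITA switches on class II genes by docking on factors bound at the X and Y boxes of their promoters.

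Signals are linear intensities per probe set, and 3 arrays per group limit the precision. The 9 smooth muscle markers examined all lay above the filter on low signal. Transcripts of fat cells were also present, with Adipoq at log2 values of 11.63 to 12.64 in knockout arteries and 11.31 to 13.53 in control arteries. The targeted gene Itgb1 differed by -0.73 (SE 0.22, limma adjusted p = 0.127). Xist was high in knockout 86 alone, with a log2 value of 11.83, so that sex is partly confounded with group and sex cannot be told apart from this mouse. Without knockout 86 the 5 class II genes other than Ciita stood 2.77-fold to 4.14-fold higher in the knockout.

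The class II genes H2-Aa, H2-Ab1, H2-Eb1, H2-DMa and Cd74 had higher signal in every knockout artery than in any control artery. They stood 2.38-fold to 3.27-fold higher on average. The transactivator gene Ciita differed 1.12-fold by its brightest probe set, whose mean of 6.64 lay just above the filter level of 6.50. Its 2 dimmer probe sets differed by 0.49 and 0.70 on the log2 scale. Knockout 73 had the highest and control 30 the lowest signal of the 5 genes other than Ciita. None of the 6 genes passed the threshold of a limma adjusted p under 0.05 over all 10654 genes tested, which 2.42% of all genes passed (1.76% with the knockout higher, 188 genes higher and 70 lower, or 160 and 101 with median centring). At an unadjusted p under 0.05, 5 of the 6 were higher in knockout arteries, as were 9.86% of all genes. The same 5 showed no overlap between groups with the knockout higher, which held for 13% of all genes. The median difference of the 6 members was 1.45 on the log2 scale, against -0.05 over all genes. As background to the direction counts of the lists below, 4597 of the 10654 genes had a higher mean in the knockout. With median centring this held for 3889 of 10655 genes. In whole arteries, more cells of a type and more RNA per cell cannot be told apart.

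H2-Aa encodes the alpha chain of the I-A molecule. Its brightest probe set had intensities of 2529, 7045 and 2337 in knockouts 72, 73 and 86, against 729, 1423 and 1852 in controls 30, 74 and 75. The groups did not overlap, and the gap between the lowest knockout and the highest control array was 0.27 on the log2 scale. The mean log2 value was 11.77 ± 0.93 in knockout arteries and 10.29 ± 0.70 in control arteries (SD, n = 3 each). The difference was 1.47 (SE 0.52, 95% confidence interval 0.24 to 2.70, limma adjusted p = 0.174).

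H2-Ab1 encodes the beta chain that pairs with it. Its brightest probe set read 1739, 4400 and 1767 in knockouts 72, 73 and 86, against 503, 1117 and 1202 in controls 30, 74 and 75. Knockouts 72 and 86 lay close together, and knockout 73 lay far above them. The mean log2 value was 11.22 ± 0.81 in knockout arteries and 9.80 ± 0.70 in control arteries (SD, n = 3 each), a difference of 1.42 (SE 0.48, limma adjusted p = 0.161).

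H2-Eb1, the beta chain of the I-E molecule, was represented by 1 probe set. It read 840, 3039 and 823 in knockouts 72, 73 and 86, against 232, 513 and 473 in controls 30, 74 and 75. The difference of 1.71 (SE 0.57, 3.27-fold, limma adjusted p = 0.157) had the highest point estimate among the members, but its 95% confidence interval of 0.35 to 3.07 overlaps those of the other chain genes. Its partner H2-Ea, the I-E alpha chain, is not expressed in C57BL/6 mice because of a promoter deletion. The 3 H2-Ea probe sets all lay below the filter, and the brightest read 31.1, 29.4 and 17.6 in knockouts 72, 73 and 86, against 30.3, 38.7 and 29.0 in controls 30, 74 and 75.

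Promoters of the chain genes are shown for the boxes through which class II genes are known to be controlled together. Sequences from RefSeq (GRCm38.p6) were found for 4 of the 7 members, namely H2-Aa, H2-Eb1, H2-DMa and H2-DMb1. The 120 bases before the start are given 5′ to 3′ for H2-Aa (chr17:34287824-34287943, minus strand), H2-Eb1 (chr17:34305747-34305866, plus strand) and H2-DMb1 (chr17:34153071-34153190, plus strand). Capitals mark matches, on either strand, to the X box core ACNGATG and to the Y box ATTGG.
H2-Aa: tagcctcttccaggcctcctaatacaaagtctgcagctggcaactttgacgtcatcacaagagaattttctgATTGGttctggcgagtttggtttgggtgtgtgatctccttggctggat
H2-Eb1: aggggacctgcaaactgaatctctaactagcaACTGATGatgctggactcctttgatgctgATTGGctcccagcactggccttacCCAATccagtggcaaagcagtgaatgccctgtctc
H2-DMb1: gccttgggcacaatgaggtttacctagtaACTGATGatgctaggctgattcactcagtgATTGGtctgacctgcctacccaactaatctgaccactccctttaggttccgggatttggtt
H2-Eb1 and H2-DMb1 carry an X box core followed on the same strand by a Y box, with 29 and 30 bases from start to start. Such a pair, at 20 to 40 bases, occurs in 50 of the 32851 promoters of the table (0.152%) within the 250 bases before the start, and 9 of those 50 belong to genes with an H2 symbol. Of these H2 genes, H2-DMb1, H2-DMb2, H2-Eb1 and H2-Eb2 are class II genes. The others, H2-D1, H2-M3, H2-Q4, H2-Q6 and H2-Q7, are class I genes. Taken singly, the X box core occurs in 8.31% and the Y box in 33.8% of all promoters of the table. H2-Aa has the Y box at 48 bases before the start and these X box letters only farther upstream, on the opposite strand. Neither of the 2 H2-DMa promoters in the table holds the pair. A match describes letters and does not show binding. A missing match to these short patterns does not show that a promoter, such as that of H2-Aa, lacks the box.

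H2-DMa encodes the alpha chain of the peptide exchange factor H2-DM. Its brightest probe set read 162, 376 and 120 in knockouts 72, 73 and 86, against 42.7, 67.2 and 73.7 in controls 30, 74 and 75. The groups did not overlap in this dimmer range either. The difference was 1.6 (SE 0.44, 3.03-fold, 95% confidence interval 0.55 to 2.65), with the lowest limma adjusted p of the members, 0.115. The control mean of 5.97 ± 0.45 (SD, n = 3) lay below the filter level of 6.50, so that this gene was tested because of its knockout signal. A further H2-DMa probe set far below the filter read 6.69, 11.6 and 1.53 in knockouts 72, 73 and 86, against 6.13, 5.25 and 12.4 in controls 30, 74 and 75.

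The 2 probe sets assigned jointly to H2-DMb1 and H2-DMb2 cannot be given to either gene and were not tested. The brighter of them read 150, 401 and 134 in knockouts 72, 73 and 86, against 62.0, 60.2 and 97.0 in controls 30, 74 and 75. H2-DMb2 through the brightest of its own probe sets differed by 0.02 (SE 0.24, limma adjusted p = 0.968). Its other probe sets gave -0.30 (above the filter) and 2.92 (below it) on the log2 scale (exact permutation p = 0.4 and 0.1).

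Cd74 encodes the invariant chain. Its probe set read 3084, 6252 and 2932 in knockouts 72, 73 and 86, against 1068, 2157 and 1887 in controls 30, 74 and 75. The mean log2 value was 11.92 ± 0.67 in knockout arteries and 10.67 ± 0.51 in control arteries (SD, n = 3 each). The difference of 1.25 (SE 0.39, 2.38-fold, limma adjusted p = 0.139) had the lowest point estimate of the 5 genes, with a 95% confidence interval of 0.33 to 2.17.

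Ciita, the gene of the transactivator, differed less. Its brightest probe set read 101, 118 and 104 in knockouts 72, 73 and 86, against 84.6, 74.3 and 116 in controls 30, 74 and 75. The groups overlapped, and the difference was 0.16 (SE 0.19, 95% confidence interval -0.28 to 0.60, limma adjusted p = 0.646). Its other 2 probe sets lay below the filter and showed no overlap, with 87.8, 113 and 94.7 in knockouts 72, 73 and 86, against 63.4, 74.0 and 58.7 in controls 30, 74 and 75, for the brighter. They differed by 0.49 and 0.70 on the log2 scale (exact 2-sided permutation p = 0.1 each, the smallest value possible with 3 arrays against 3). Within arrays, the mean of the other 5 genes minus Ciita was 3.54, 4.68 and 3.29 in knockouts 72, 73 and 86, against 1.97, 3.02 and 2.54 in controls 30, 74 and 75. These values did not overlap either, and their group difference was 1.33 (exact permutation p = 0.1). This comparison was not planned and splits the members by their own results in these data. It is a description and adds no evidence to the values of the single genes.

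**Figure D1:**
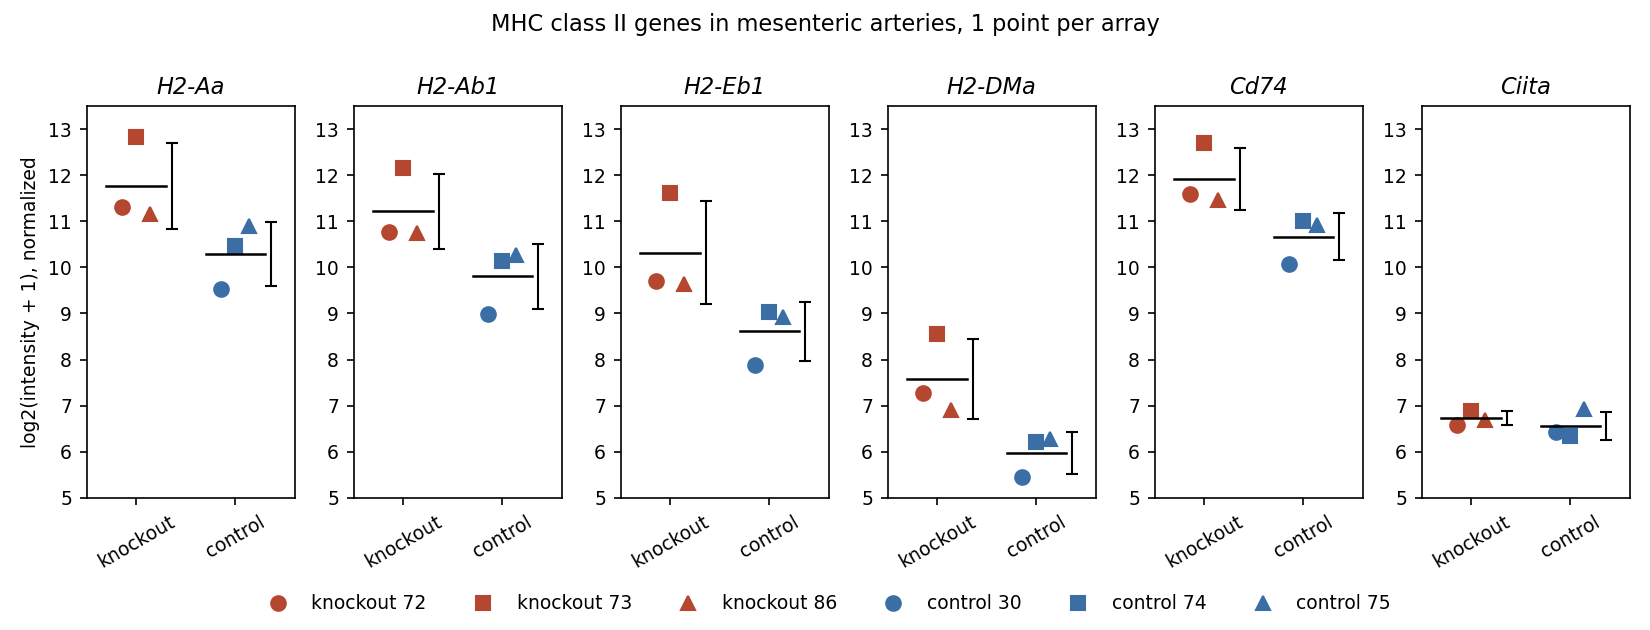
Normalized log2(intensity + 1) of the 6 MHC class II genes tested, 1 point per array, with knockout arteries left of control arteries. Horizontal lines are group means and bars are SD (n = 3). In H2-Aa, H2-Ab1, H2-Eb1, H2-DMa and Cd74 all knockout points lie above all control points, knockout 73 being the highest and control 30 the lowest, whereas the groups overlap in Ciita.

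Knockout 73 and control 30 stood apart within their groups for each of the 5 genes, while controls 74 and 75 changed order between genes. Knockout 73 lay 2.03 (Cd74) to 3.0 (H2-Eb1) above the control mean on the log2 scale, whereas the mean of knockouts 72 and 86 lay 0.86 (Cd74) to 1.11 (H2-DMa) above it. Control 30 lay 0.78 (H2-DMa) to 1.21 (H2-Ab1) below the mean of controls 74 and 75. Averaged over the 6 members, the log2 value was 9.54, 10.79 and 9.43 in knockouts 72, 73 and 86, against 8.06, 8.86 and 9.03 in controls 30, 74 and 75.

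The size of the difference rested on these arrays more than its direction did. Without knockout 73, the differences were 0.94 for H2-Aa, 0.95 for H2-Ab1, 1.06 for H2-Eb1, 1.11 for H2-DMa and 0.86 for Cd74, or 1.82-fold to 2.16-fold, and 3 of the 6 members had an unadjusted p under 0.05, against 9.02% of all genes with the knockout higher. Without control 30 they were 1.09, 1.02, 1.34, 1.34 and 0.95 in the same order of genes, and 2 members had an unadjusted p under 0.05, against 9.23% of all genes with the knockout higher. No member passed the limma threshold in any fit of 5 arrays.

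Probe sets of the same gene above the filter had the same direction and differed in how far knockout 73 stood out. Above the filter were 11 member probe sets, and in 10 of them, all except that of Ciita, the knockout was higher without overlap, as in 12.9% of all probe sets. In these 10 the fold ran from 2.38 to 4.11 and the exact permutation p was 0.1 in each. Of all 11, 0 passed the limma threshold by probe set, against 1.51% of all probe sets, and 8 had an unadjusted p under 0.05, against 9.67% of all probe sets with the knockout higher.

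The 4 H2-Aa probe sets differed between groups by 1.47, 1.66, 1.81 and 1.78 from brightest to dimmest, and the 3 of H2-Ab1 by 1.42, 1.6 and 2.04. The brightest H2-Ab1 probe set exceeded the next by 2.25, 1.11 and 2.20 in knockouts 72, 73 and 86, against 1.96, 1.90 and 2.25 in controls 30, 74 and 75. For H2-Aa this gap was 1.24, 0.35 and 1.31 in knockouts 72, 73 and 86, against 1.30, 0.76 and 1.41 in controls 30, 74 and 75. For both genes the brightest probe set put knockout 73 nearest to the control mean. H2-Aa, H2-Ab1 and H2-Eb1 differ in sequence between mouse strains, the strain alleles of these mice are not given in the sources used here, and the part of allele differences in these gaps was not tested. Several of these probe sets carry the suffix x or s, which marks probes shared with similar sequences.

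**Figure D2:**
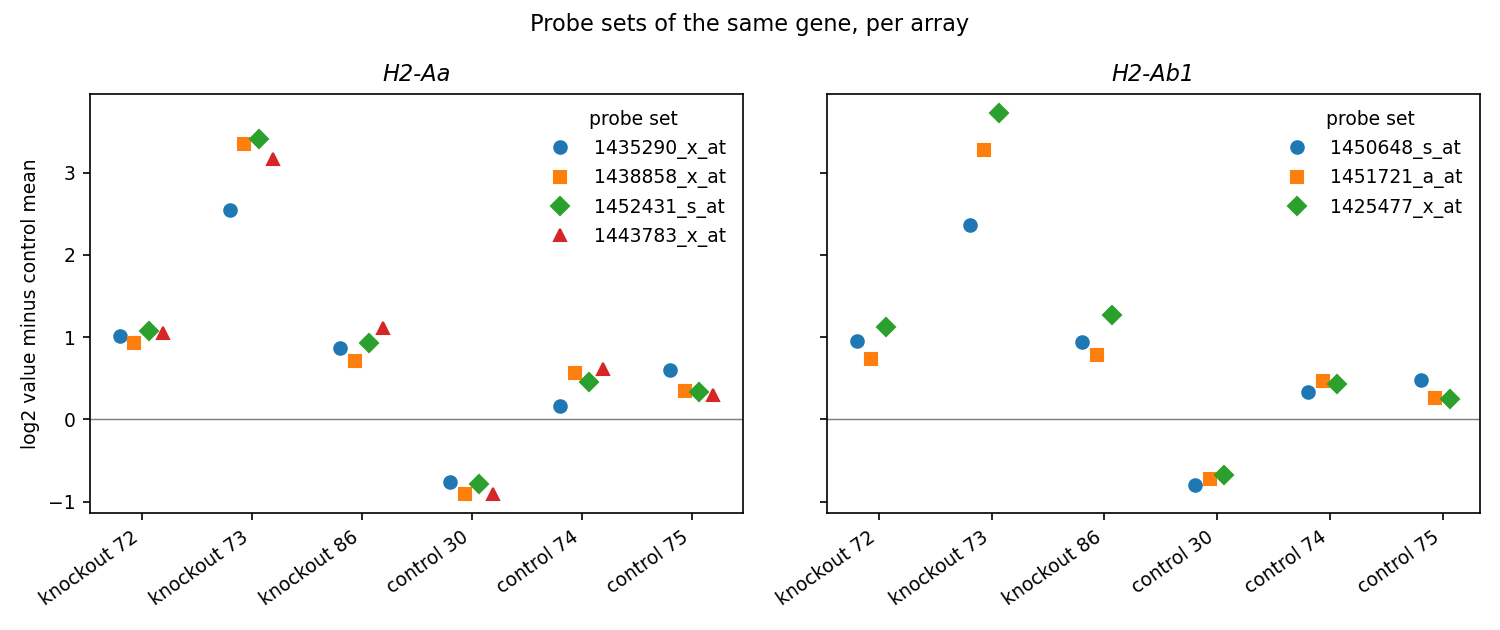
Log2 value minus the control mean of the same probe set, for the 4 probe sets of H2-Aa and the 3 of H2-Ab1, with knockout arrays left of control arrays. Probe sets lie close together on most arrays and fan out on knockout 73, where the brightest probe set of each gene gives the lowest value.

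The genes tested that lie among the class II genes on chromosome 17 and are not members overlapped between groups. In reference order, H2-DMa, H2-DMb2 and H2-DMb1 are followed by the class I processing genes Psmb9, Tap1, Psmb8 and Tap2 before H2-Ab1, H2-Aa and H2-Eb1. Of 14 protein-coding genes from H2-Oa to H2-Eb2, 10 were tested, of which 4 were members. The other 6 differed by -0.36 (Tap2) to 0.02 (H2-DMb2) with a median of -0.20, in all 6 the groups overlapped, and the lowest limma adjusted p was 0.523. Cd74 and Ciita lie apart from this interval, on chromosomes 18 and 16.

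**Figure D3:**
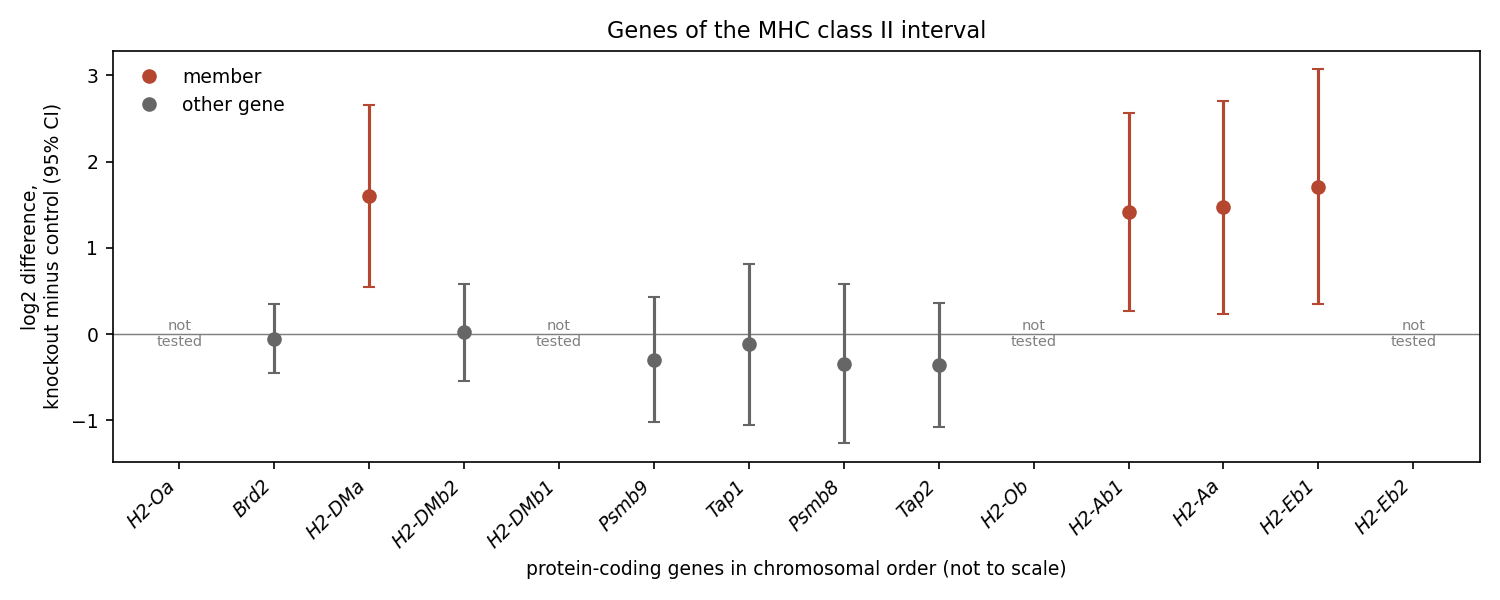
Log2 difference, knockout minus control, with 95% confidence intervals, for the protein-coding genes of the class II interval in chromosomal order. Intervals of the 4 members tested lie above 0, and those of the 6 other genes tested include 0.

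H2-Ob, which lies between Tap2 and H2-Ab1 and was named after its values were seen, encodes a chain of the H2-DM inhibitor H2-O and is typical of B cells. It lay below the filter and read 25.5, 117 and 28.2 in knockouts 72, 73 and 86, against 7.43, 15.8 and 20.5 in controls 30, 74 and 75 (exact permutation p = 0.1). H2-Oa, the other chain, overlapped between groups with a difference of 0.59 (exact permutation p = 0.4), and H2-Eb2 stood at -0.58 (exact permutation p = 0.1), both below the filter.

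Genes that prepare peptides and the invariant chain for class II were mixed. Of 12 tested, 0 passed the threshold, 9 were higher and 3 lower in the knockout, and the list median was 0.23, or 0.089 without knockout 73, 0.39 without knockout 86 and 0.42 without control 74. Ctss, the cathepsin that degrades the invariant chain in antigen-presenting cells, had log2 values of 11.48, 13.09 and 10.51 in knockouts 72, 73 and 86, against 8.41, 10.08 and 9.44 in controls 30, 74 and 75. Its difference was 2.38 (SE 0.69, limma adjusted p = 0.125), without overlap. Ifi30, a thiol reductase of endosomes, differed by 1.03 (SE 0.31, limma adjusted p = 0.130), also without overlap. For the proteases Lgmn and Ctsz, which many cell types express, the differences were 0.50 and 0.56 with overlapping groups (limma adjusted p = 0.310 and 0.318).

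Among transcription factors linked to class II genes, 0 of 9 passed the threshold, with 4 higher, 5 lower and a median of -0.11, which was 0.079 without knockout 86 and 0.098 without control 75. The factors of the X and Y boxes differed in sign. The Y box factor subunit Nfya differed by 0.53 (limma adjusted p = 0.147), without overlap. The X box factor subunit Rfxank differed by -0.82 (limma adjusted p = 0.158), while another Rfxank probe set, also bright enough to be tested, gave 0.10. Nfyb and Creb1, named after their values were seen, were lower without overlap, at -0.15 and -0.20 (exact permutation p = 0.1 each). Another Creb1 probe set above the filter gave 0.02. Irf8, a factor of myeloid and B cells, had log2 values of 7.45, 9.13 and 7.25 in knockouts 72, 73 and 86, against 5.87, 6.79 and 6.77 in controls 30, 74 and 75, a difference of 1.46 (limma adjusted p = 0.176), and Spi1, a factor of myeloid cells, differed by 0.71 (limma adjusted p = 0.247), both without overlap. The Irf8 control mean of 6.48 lay just under the filter level, so that Irf8 too was tested because of its knockout signal.

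**Figure D4:**
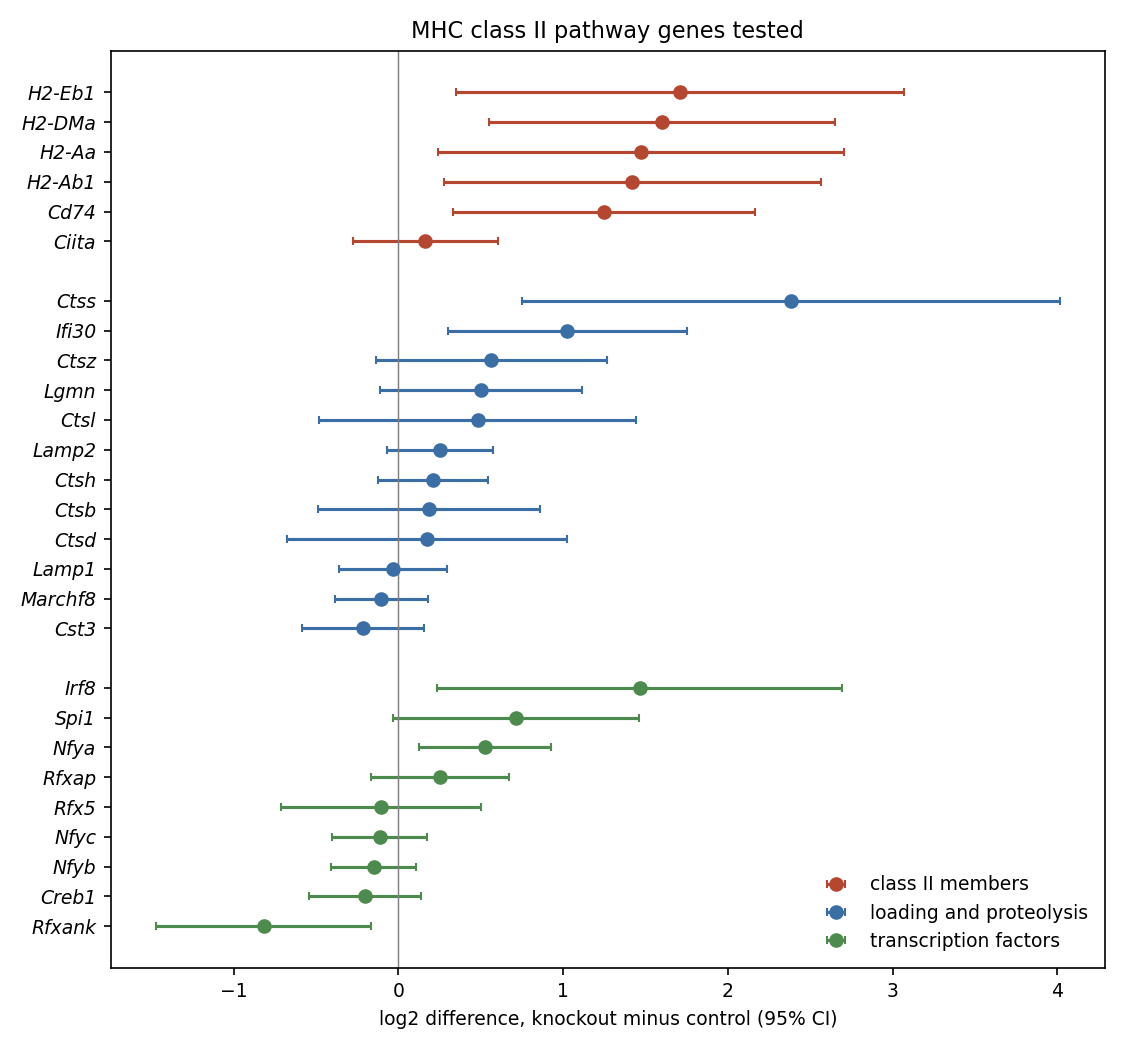
Log2 difference, knockout minus control, with 95% confidence intervals, for the class II genes tested, the genes of loading and proteolysis and the transcription factors. H2-Eb1 at 1.71 and Ctss at 2.38 have the highest point estimates of their groups, and the X and Y box factors lie between -0.82 (Rfxank) and 0.53 (Nfya).

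Genes of the interferon-gamma axis, the usual inducer of CIITA, had a median difference of -0.29, with 3 of 12 higher, 9 lower and 0 past the threshold. The median was -0.057 without knockout 86, and 1 gene passed the threshold without control 30. The receptor subunit Ifngr2 stood at 1.66 (limma adjusted p = 0.0797) and its other probe set, below the filter, at 0.33. The interferon-induced GTPase genes Gbp2, Gbp3 and Irgm1 were lower without overlap, at -0.61, -0.57 and -0.34 (limma adjusted p = 0.126, 0.170 and 0.306). Ifng itself, named after its values were seen, read at most 3.98 in knockout arteries and at most 2.84 in control arteries, in the lowest range of the array.

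Class I presentation, which shows peptides from inside the cell, had a median of -0.16 over 14 genes, with 3 higher, 11 lower and 0 past the threshold. This median was -0.38 without knockout 73, -0.35 without control 30, -0.015 without knockout 86 and -0.013 without control 74. The endoplasmic reticulum chaperone genes Calr (0.46, limma adjusted p = 0.0958) and Pdia3 (0.70, limma adjusted p = 0.137) were higher without overlap, while the peptide loading genes Tapbp (-0.27, limma adjusted p = 0.321) and Tap2 (-0.36, limma adjusted p = 0.523) overlapped. Relative to this list, the member mean was -0.52, 0.37 and -0.30 in knockouts 72, 73 and 86, against -1.82, -1.61 and -1.08 in controls 30, 74 and 75, a comparison added after seeing the data. The group difference of 1.35 was without overlap (exact permutation p = 0.1). Of the costimulatory genes, which accompany class II on activated presenting cells, only Cd274 was above the filter (-0.61, limma adjusted p = 0.501). Cd83, named after its values were seen, read 76.2, 294 and 55.7 in knockouts 72, 73 and 86, against 28.9, 44.0 and 34.4 in controls 30, 74 and 75 (exact permutation p = 0.1). By brightest probe set, Cd83 had the highest difference of the costimulatory genes below the filter, and these genes differed in sign. By brightest probe set, Cd80 and Tnfsf4, also named after their values were seen, were lower, at -0.35 and -0.23 (exact permutation p = 0.2 and 0.3). Dimmer Cd80 probe sets differed in sign, at -0.59, 0.76 and 1.08 (exact permutation p = 0.2, 0.1 and 0.1). The others were higher by brightest probe set, with overlapping groups for Icosl, Pdcd1lg2 and Tnfsf9. Cd40 and Cd86, also named after their values were seen, were higher without overlap, at 0.59 and 0.79 (exact permutation p = 0.1 each).

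Markers of leukocytes were higher in the same arrays as the class II genes. All 9 pan-leukocyte genes on the list were higher without overlap, against 13% of all genes. Their median difference was 2.00, with 0 past the threshold. Ptprc, the gene of CD45, had log2 values of 9.54, 11.38 and 9.02 in knockouts 72, 73 and 86, against 7.04, 8.12 and 7.84 in controls 30, 74 and 75 (difference 2.32, limma adjusted p = 0.103). Laptm5 stood at 2.00, Coro1a at 1.86 and Cd53 at 2.16 (limma adjusted p = 0.0782, 0.0959 and 0.127). The summed intensity of the list ran from 4182 to 16921 in knockout arteries and from 1387 to 2704 in control arteries.

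Of 16 macrophage genes, 14 were tested and all were higher, 7 of them without overlap (13% of all genes), with a median of 1.5. Only Ccr2, the chemokine receptor of recruited monocytes, passed the threshold (difference 2.35, SE 0.28, limma adjusted p = 0.0133). Its call was lost without knockout 72 (limma adjusted p = 0.0667) or control 75 (limma adjusted p = 0.0590). Its control mean of 5.64 lay below the filter level, so that Ccr2 was tested because of its knockout signal. The mannose receptor gene Mrc1 (1.42, limma adjusted p = 0.0668) and the complement genes C1qa (1.29, limma adjusted p = 0.0773) and C1qb (1.75, limma adjusted p = 0.123) did not pass. The summed intensity of the list ran from 13183 to 32976 in knockout arteries and from 5747 to 9037 in control arteries. The part of leukocyte content in the class II differences was not tested.

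The class II genes were also set against these lists within each array. The member mean covers all 6 genes tested, so it includes Ciita, which differed by 0.16, and the values without Ciita alone were not computed. The 70th percentile filter left out Ciita, H2-DMa and some list genes. With it the group differences were 0.21 against macrophage and -0.30 against pan-leukocyte genes (exact permutation p = 0.5 and 0.2). The member mean minus the macrophage mean was 0.03, 0.28 and 0.18 in knockouts 72, 73 and 86, against 0.03, 0.08 and 0.50 in controls 30, 74 and 75, and the group difference was -0.04 (exact permutation p = 0.9). Minus the pan-leukocyte mean it was 0.44, 0.02 and 0.75 in knockouts 72, 73 and 86, against 1.11, 0.74 and 1.15 in controls 30, 74 and 75, and the group difference was -0.59 (exact permutation p = 0.2). Here knockout 86 alone overlapped the controls, and the groups did not overlap with median centring, with no normalization or without knockout 86 (exact permutation p = 0.1 each). With 3 arrays against 3 these tests do not show that the lists moved alike.

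**Figure D5:**
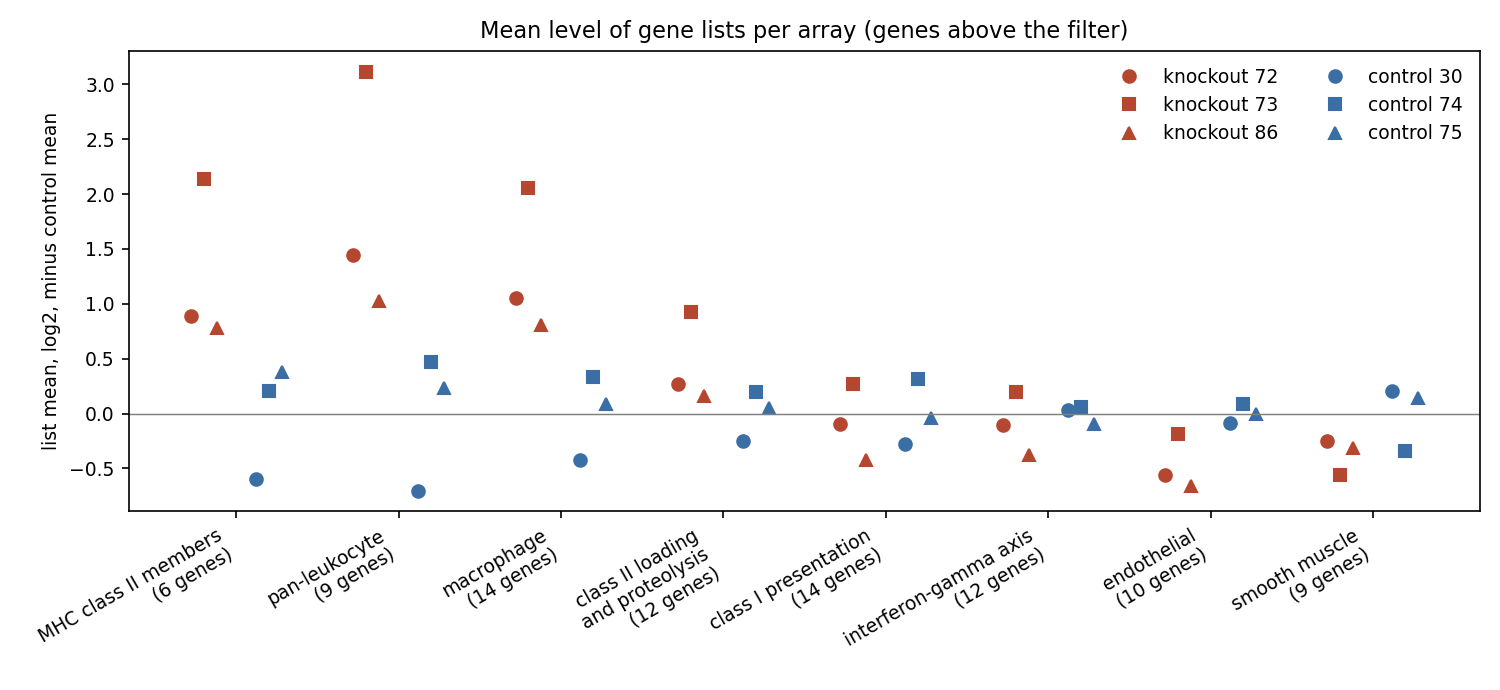
Mean log2 value of each gene list per array, minus the mean of the control arrays, with knockout points left of control points within each list. MHC class II, pan-leukocyte and macrophage lists lie highest in knockout 73 and lowest in control 30, while the class I and interferon-gamma lists overlap between groups.

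Of 10 dendritic cell genes, 3 were tested, with 0 past the threshold, and their summed intensity ran from 963 to 1694 in knockout arteries and from 507 to 854 in control arteries. Zbtb46, a factor of classical dendritic cells, differed by 0.54 (limma adjusted p = 0.10), Clec10a by 0.94 and Itgax by 0.69 (limma adjusted p = 0.254 and 0.609), the Itgax control mean of 6.34 lay below the filter level, and the dimmer Zbtb46 probe sets that passed the filter gave 0.38 and -0.17. The following genes of the list lay below the filter and were named after their values were seen. Flt3, a growth factor receptor of dendritic cell precursors, read 39.6, 31.7 and 24.8 in knockouts 72, 73 and 86, against 21.8, 18.01 and 13.8 in controls 30, 74 and 75. Flt3, Batf3 and Cd209a were higher without overlap, by 0.75, 0.53 and 1.06 (exact permutation p = 0.1 each), whereas Ccr7, a receptor of migrating dendritic cells, overlapped (0.52, exact permutation p = 0.8). Xcr1 and Siglech overlapped too, at 1.10 and -0.33 (exact permutation p = 0.3 and 0.7), so that Siglech went the other way.

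The summed B cell signal was highest in knockout 73. Of 11 genes on the list, Ighm, the immunoglobulin mu chain gene, alone was above the filter (0.59, limma adjusted p = 0.484), and the summed intensity was 749, 2360 and 772 in knockouts 72, 73 and 86, against 706, 824 and 811 in controls 30, 74 and 75. Other Ighm probe sets were uneven across arrays, and one that passed the filter read 396, 1391 and 43.0 in knockouts 72, 73 and 86, against 26.3, 68.1 and 699 in controls 30, 74 and 75. Cd79a, named after its values were seen, read 21.9, 131 and 10.5 in knockouts 72, 73 and 86, against 17.6, 15.5 and 22.5 in controls 30, 74 and 75. The B cell genes below the filter, by brightest probe set, differed in sign. They ran from -0.51 (Pax5, lower without overlap, exact permutation p = 0.1) to 0.74 (Cd79a, exact permutation p = 0.8). Of the T cell genes, Thy1, which fibroblasts also express, was the only one above the filter (1.51, limma adjusted p = 0.0902). Cd4, the coreceptor for class II, also named after its values were seen, read 2.03, 31.2 and 2.30 in knockouts 72, 73 and 86, against 5.68, 2.94 and 5.93 in controls 30, 74 and 75. By brightest probe set, the T cell genes below the filter ran from -0.41 (Cd28, exact permutation p = 0.4) to 1.02 (Cd3g, exact permutation p = 0.2). Dimmer probe sets included -0.48 for Cd247, 0.92 for Cd28 and 1.29 for Cd8a (exact permutation p = 0.3, 0.3 and 0.1). The part of these cells in the class II differences was not tested.

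Among cells of the vessel wall, endothelial and smooth muscle genes gave lower values, and most fibroblast genes gave higher values. Endothelial genes were lower in the knockout in all 10 cases (median -0.47, 5 without overlap, 0 past the threshold). Pecam1 stood at -0.86 (limma adjusted p = 0.123) and Tek at -0.62 (limma adjusted p = 0.0910). Smooth muscle genes were lower in all 9 (median -0.33, 3 without overlap, 0 past the threshold). Among them Lmod1, a regulator of actin filaments, stood at -1.20 (limma adjusted p = 0.0567). Over all 10654 genes, 2990 did not overlap in either direction, 1383 of them with the knockout higher. The smooth muscle median was -0.21 without knockout 73 and -0.22 without control 30, and 1 gene of the list passed the threshold without control 74. Of 8 fibroblast genes, 6 were higher in the knockout, 3 of them without overlap (13% of all genes), and 2 were lower. Their median was 0.29, or 0.14 without control 30 and 0.43 without control 75. Only 1 of them passed the threshold, Col1a1, which encodes a chain of type I collagen and rose by 1.23 (limma adjusted p = 0.0309). Its call was lost without knockout 72 (limma adjusted p = 0.103), knockout 73 (0.0846), knockout 86 (0.106) or control 75 (0.0914) and with no filter (0.0733). The 5 adipocyte genes tested overlapped between groups, with a median of -0.41, which was 0.14 without control 74, -1.17 without control 30, -0.12 without control 75 and -0.048 without knockout 86.

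The genes whose profile over the 6 arrays lay closest to the member mean were Irf8, Cxcl16, Fermt3, Mrc1 and Rnf149. Closeness was the mean absolute difference between centred log2 values, which was 0.14 for Irf8, 0.17 for Cxcl16 and Fermt3, 0.18 for Mrc1 and 0.19 for Rnf149. Irf8 encodes a transcription factor of myeloid and B cells, Cxcl16 a chemokine with a transmembrane form, Fermt3 the kindlin of blood cells that activates integrins, and Rnf149 a ubiquitin ligase. Each is given as a description over 6 arrays, and none of these 5 genes passed the threshold (limma adjusted p = 0.0668 to 0.176).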

How the data were processed

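Biotin-labelled total RNA was hybridised to arrays, per the labels. The deposited table holds 1 linear intensity per probe set and array as the authors made it, and the sources used here do not give their summarising and scaling steps. Names came from the platform annotation, in which 34945 probe sets have 1 symbol, 932 several and 9160 none. After adding 1, log2 was taken and arrays were quantile normalized. Of the probe sets with 1 symbol, those with a mean under the median of these means (6.50) were left out, and the brightest left stood for its gene (10654 genes). The planned wording did not say whether the median covered probe sets without 1 symbol. A median over all probe sets was run first and is given as an alternative (11378 genes, 299 past the threshold). Groups were compared with limma 3.58.1 (R 4.3.3), 2-sided, with Benjamini-Hochberg adjustment over all genes, and single values by exact permutation. The procedure was tested on simulated data. Alternatives changed filter, probe set choice, normalization, pseudocount, variance prior, weights and arrays. Named genes were the members, up to 4 per list with the smallest p, the 5 closest profiles and Itgb1, and genes named outside this rule, including those below the filter, were chosen after their values were seen. Motifs were searched on both strands, also the gamma-activated site TTCNNNGAA (7.02% of promoters). Members and lists were chosen with earlier results of these data known. The labels do not mention litters, so p-values measure the spread between these mice.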

Additional observations from a re-analysis of the deposited data

How the results depend on the processing

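In all 16 alternatives no member passed the limma threshold, and the median difference of the members lay between 0.94 and 1.72. H2-Aa, H2-Ab1, H2-Eb1, H2-DMa and Cd74 stayed higher in knockout arteries, with limma adjusted p-values of 0.0577 (H2-DMa, array weights) to 0.286. Ciita and H2-DMa were not tested with the 70th percentile filter, and Ciita stood at -0.072 with array weights (the cause was not tested). With 1 array left out, the differences ran from 0.94 to 1.78 for H2-Aa, 0.95 to 1.66 for H2-Ab1, 1.06 to 2.05 for H2-Eb1, 1.11 to 1.94 for H2-DMa, 0.86 to 1.47 for Cd74 and 0.05 to 0.34 for Ciita. All genes past the threshold numbered 258, 141 with the 70th percentile filter, where fewer genes were tested, 174 with no filter, 1131 with array weights and 45 to 240 with 1 array left out. Listed genes other than members past it numbered 2, against 1 with no filter, 1 with the 70th percentile filter, 20 with array weights and 0 to 3 with 1 array left out. The member mean minus the macrophage mean lay between -0.12 and 0.11 with 1 array left out, and turned to 0.03 without knockout 72 and to 0.11 without control 75 (the cause was not tested). It was 0.21 with the 70th percentile filter and 0.046 with each gene averaged over its probe sets. With 1 array left out, it lay between -0.77 and -0.40 minus the pan-leukocyte mean (-0.30 with the 70th percentile filter) and between 1.09 and 1.56 minus the class I mean, a comparison added after seeing the data. The filter over all probe sets left no member past the threshold (lowest limma adjusted p = 0.114). No paired analysis was possible because the animal numbers are not shared between groups.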
